A study of Rattus norvegicus with 30 samples.

Results

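The genes described here are the 3 genes of the C1q chains, the complement component gene C3 and the microglial marker gene Aif1, 5 of 32545 gene identifiers in the tables. They were chosen by identifier: ENSRNOG00000012807, ENSRNOG00000012749 and ENSRNOG00000012804 for the C1q chains as a set, ENSRNOG00000046834 for C3 and ENSRNOG00000000853 for Aif1. Which identifier encodes which chain (C1qa, C1qb or C1qc) is not given in the sources used here, so the chains are called the first, the second and the third C1q chain in that order. The order is only that of the list. All 5 identifiers were in every library and passed the filter on low counts.

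Adult female Long Evans rats (Crl:LE, older than 10 weeks) had a spinal cord injury (SCI) at thoracic level or a sham operation. The bilateral intermediate laminae were then cut from a thin cervical slice. Tissue came from sham rats at 1 and 12 weeks, and from rats with SCI at 1, 3, 6 and 12 weeks, with 5 rats and 5 libraries in each of the 6 groups. All rats had an operation, so no group is without surgery, and no sham rats were sampled at 3 or 6 weeks. The rats sequenced were chosen out of larger groups by RNA quality and quantity, and all were perfused with Ringer solution before dissection.

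Library totals ranged from 6459555 to 37410793 counts. For replicate 1 of sham 1 week the title says control while the surgery and source fields say injury. It was kept as sham, and the comparisons at 1 week and between the sham groups are also given without it. Since no gene symbols are paired with the other identifiers, the labelled tissue was not checked against its marker genes, and the other complement, microglia and infiltrating cell genes were not counted.

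Complement is a cascade of plasma and tissue proteins. C1q, built from A, B and C chains, recognises antibody complexes, dying cells and, in the nervous system, synapses, and starts the classical pathway. C3 is the component on which all complement pathways converge, and its cleavage products tag targets for uptake by phagocytes. In the brain and spinal cord C1q is made mainly by microglia, the resident macrophages. Aif1 encodes IBA1, an actin-binding protein used as a marker of microglia and macrophages. C3 is made by reactive astrocytes, microglia and cells of the meninges and vessels, and by the liver for plasma.

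In RefSeq's annotation of GRCr8, C1qb, C1qc and C1qa stand side by side in that order on chromosome 5, with no other annotated gene between them. C3 lies on chromosome 9 and Aif1 on chromosome 20. Promoter sequences were in the RefSeq table (GRCr8) for 3 of the 5 genes, C1qa, C1qb and C3. The counts were made on another build, Rnor_6.0, so these positions do not locate the counted reads. The 250 bases before each annotated start are shown because 2 chains made in the same cells and a gene with other sources can be read side by side. Capitals mark matches on either strand to GAGGAA, called the PU box, to GGAAGT, an ETS core, or to TTNNGNAA, a C/EBP-type motif.

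C1qa promoter (chr5:154419934-154420183, minus strand): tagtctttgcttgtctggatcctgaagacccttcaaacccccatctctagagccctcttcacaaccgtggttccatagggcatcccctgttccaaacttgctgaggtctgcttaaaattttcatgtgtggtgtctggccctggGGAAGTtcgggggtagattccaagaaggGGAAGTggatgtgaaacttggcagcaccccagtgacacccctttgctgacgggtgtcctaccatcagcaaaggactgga

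C1qb promoter (chr5:154407828-154408077, minus strand): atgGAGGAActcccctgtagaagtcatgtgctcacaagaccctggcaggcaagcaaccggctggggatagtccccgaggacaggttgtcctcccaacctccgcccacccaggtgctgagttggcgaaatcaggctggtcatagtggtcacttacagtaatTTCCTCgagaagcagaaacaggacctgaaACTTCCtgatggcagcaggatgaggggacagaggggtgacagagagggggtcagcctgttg

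C3 promoter (chr9:2201340-2201589, minus strand): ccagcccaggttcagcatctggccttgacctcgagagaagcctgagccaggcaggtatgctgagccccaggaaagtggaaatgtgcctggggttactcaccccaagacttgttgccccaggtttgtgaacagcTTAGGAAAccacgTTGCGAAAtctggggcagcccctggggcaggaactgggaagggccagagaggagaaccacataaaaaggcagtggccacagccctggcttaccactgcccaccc

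The C1qa window held GGAAGT at 2 places, 107 and 79 bases before the start. The C1qb window held GAGGAA at 247 and 90 bases and GGAAGT at 61 bases before the start. PU.1, an ETS factor of the macrophage lineage, binds letters of this kind. The C3 window held neither, but held TTNNGNAA at 117 and 104 bases before the start. Of 33469 promoters in the table, 19.2% held GGAAGT, 23.3% GAGGAA and 37.2% TTNNGNAA within the same length on either strand. GAGGAA and GGAAGT share letters and can overlap. No window held TGANTCA (AP-1, in 6.34% of promoters), an interferon-stimulated element (3.41%) or an NF-kappaB motif (1.08%). These are matches of letters and say nothing of binding in this tissue.

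No change after injury was detected in any of the 5 genes at any of the 4 times (edgeR, quasi-likelihood; p adjusted by Benjamini-Hochberg over 14801 genes, threshold 0.05). The ranges of sham and injured rats overlapped at 1 and at 12 weeks for all 5 genes, where 1.84% and 0.48% of all genes had all 5 injured rats above all 5 sham rats and 1.66% and 0.466% had them below. C3 was the variable gene of the set, with a 4.5-fold range over the 30 rats, and its mean was higher at the later times in both sham and injured rats without passing the threshold. The first C1q chain had the lowest p of the 5 genes between SCI 1 week and SCI 12 weeks. Among rats of the same group, the first and the second chain moved together. The relation of the third chain with the second passed the threshold, but not when any of 3 libraries was left out. That of the third chain with the first passed narrowly (permutation test, adjusted p = 0.048), but not when any of 19 libraries was left out. No relation of C3 with Aif1 was detected. In bulk tissue fewer cells of a type and less RNA per cell cannot be told apart. Levels are given as CPM, counts per 1000000 counts after TMM scaling (a correction for differences in composition between libraries), and they depend on transcript length, so levels of different genes are not compared.

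**Figure D1:**
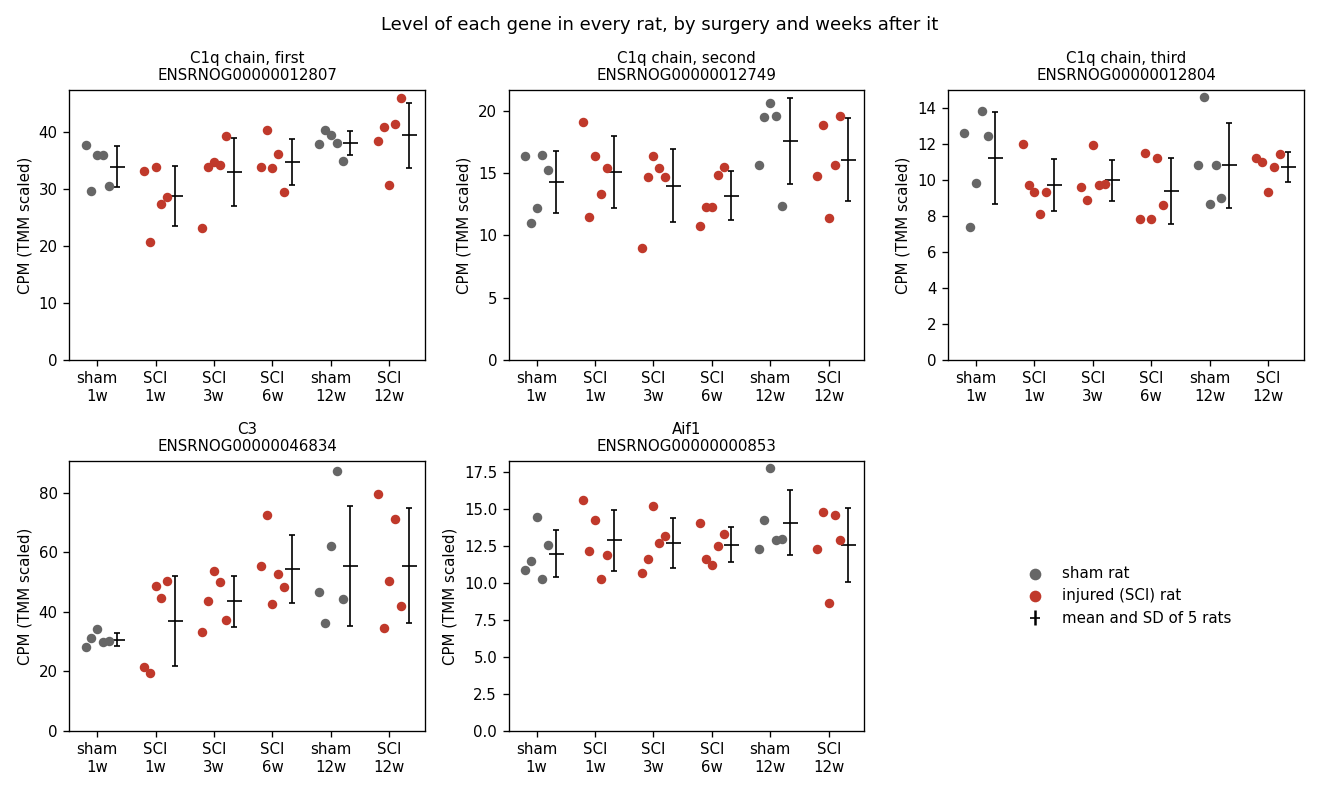
CPM of each gene (vertical axes from 0) in every rat by group, with sham rats gray, injured rats red, and the mean and SD of 5 rats as a black bar. Sham and injured rats of the same week overlap in all 5 genes, and C3 is tight in sham 1 week, between 28.2 and 34.0 CPM, and spread in the other groups.

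The first C1q chain was the only gene of the set with an unadjusted p under 0.05 at 1 week after injury. In sham 1 week its 5 rats stood at 37.7, 29.6, 35.9, 35.9 and 30.5 CPM. In SCI 1 week they stood at 33.1, 20.7, 33.8, 27.3 and 28.6 CPM, the lowest mean of the 6 groups. The ranges overlapped, and the rats at 20.7, 27.3 and 28.6 CPM lay below every sham rat of that week. The mean was 28.7 ± 5.29 CPM (SD, n = 5) against 33.9 ± 3.62 in sham, which is -0.245 in log2 (standard error 0.118) (edgeR, unadjusted p = 0.0461, adjusted p = 0.347). At this unadjusted level 13.9% of all genes would be counted in the same comparison, so 1 gene of 5 is near the background. Without the library of conflicting labels the log2 fold change was -0.20 (edgeR, adjusted p = 0.515), and with it counted as injured -0.13 (edgeR, adjusted p = 0.748).

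The second C1q chain did not share that direction at 1 week. It stood between 11.0 and 16.5 CPM in sham 1 week and between 11.5 and 19.1 CPM in SCI 1 week, with means of 14.3 ± 2.52 and 15.1 ± 2.9 (SD, n = 5). Its log2 fold change was 0.07 with a 95% interval from -0.25 to 0.40 (edgeR, adjusted p = 0.88). The third C1q chain stood between 7.4 and 13.8 CPM in sham 1 week and between 8.1 and 12.0 CPM in SCI 1 week, or -0.22 in log2 with an interval from -0.51 to 0.08 (edgeR, adjusted p = 0.535). The 3 chains are subunits of 1 protein, and their summed level was 53.5 ± 8.8 CPM in SCI 1 week and 59.4 ± 7.61 in sham 1 week.

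C3 split the injured rats of 1 week. Replicates 1 and 2 stood at 21.4 and 19.4 CPM, below all 5 sham rats, and replicates 3, 4 and 5 at 48.5, 44.5 and 50.3 CPM, above all of them. The sham rats of that week stood at 28.2, 31.0, 34.0, 29.9 and 30.1 CPM. The means of 36.8 ± 15.2 and 30.6 ± 2.13 CPM (SD, n = 5) differed by less than the spread of the injured rats, with a log2 fold change of 0.26 and an interval from -0.30 to 0.81 (edgeR, adjusted p = 0.72). Of the 2 rats with low C3, replicate 2 had the lowest first C1q chain of all 30 rats, 20.7 CPM, and replicate 1 had the highest second chain (19.1 CPM) and Aif1 (15.6 CPM) of its group. In the third chain these 2 rats were the highest of the group, at 12.0 and 9.68 CPM.

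Aif1 stood between 10.3 and 14.5 CPM in sham 1 week and between 10.3 and 15.6 CPM in SCI 1 week. The means were 12.0 ± 1.62 and 12.9 ± 2.08 CPM (SD, n = 5), a log2 fold change of 0.10 with an interval from -0.17 to 0.37 (edgeR, adjusted p = 0.794). The interval excluded a rise or fall of Aif1 by more than 1.29-fold upward or to below 0.887 of sham. Of the 14801 genes tested at 1 week, 53 or 0.358% passed the adjusted threshold, and 0 of the 5 did. Without the library of conflicting labels that background count was 1, and the log2 fold changes were 0.13 for the second chain, -0.17 for the third, 0.23 for C3 and 0.06 for Aif1, with 0 of the 5 genes passing.

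For SCI 3 weeks, with no sham rats of that week, the 2 sham groups together served as reference. Of the 5 genes 0 passed, as did 0.0% of all genes, and none had an unadjusted p under 0.05, against 7.11% of all genes (DESeq2 and limma-voom also called 0 of the 5). In SCI 3 weeks the first chain stood at 23.1, 33.8, 34.7, 34.2 and 39.3 CPM, the second between 8.97 and 16.4, and the third between 8.88 and 11.9. Replicate 1, the shallowest library of the group, was lowest in the first and the second chain, in C3 and in Aif1. The log2 fold changes of the chains were -0.12, -0.16 and -0.14, with interval bounds between -0.45 and 0.13 (edgeR, adjusted p from 0.818 to 0.834). Aif1 stood between 10.7 and 15.2 CPM, a log2 fold change of -0.03 (edgeR, adjusted p = 0.972).

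At 6 weeks, against the same reference, again 0 of the 5 genes and 0.0% of all genes passed, and 0 of the 5 had an unadjusted p under 0.05, against 8.22% of all genes. The second chain was lowest in this group, 13.2 ± 1.96 CPM (SD, n = 5) with rats between 10.8 and 15.5, and so was the third, 9.38 ± 1.83 CPM with rats between 7.79 and 11.5. Their log2 fold changes were -0.26 (edgeR, adjusted p = 0.659) and -0.23 (edgeR, adjusted p = 0.663), with upper bounds of 0.04 for both. The first chain stood at 33.9, 40.4, 33.6, 36.1 and 29.4 CPM and its log2 fold change was -0.06 (edgeR, adjusted p = 0.895). Aif1 had its smallest spread here, 12.6 ± 1.2 CPM, and a log2 fold change of -0.06 with an interval from -0.30 to 0.19 (edgeR, adjusted p = 0.919).

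For C3 the comparison at 3 and 6 weeks depended on which sham rats served as reference. The 5 rats stood at 33.1, 43.5, 53.7, 50.1 and 37.3 CPM in SCI 3 weeks, and at 55.5, 72.4, 42.5, 52.7 and 48.3 CPM in SCI 6 weeks. Set against the 2 sham groups together, the log2 fold change was 0.09 at 3 weeks (edgeR, adjusted p = 0.957) and 0.39 at 6 weeks (edgeR, adjusted p = 0.673). Against sham 1 week alone it was 0.52 and 0.81, and against sham 12 weeks alone -0.33 and -0.03. The direction of an injury effect on C3 at these times therefore cannot be read from this design.

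In SCI 12 weeks, with sham 12 weeks as reference, 0 of the 5 genes and 0.0% of all genes passed, and 0 of the 5 had an unadjusted p under 0.05, against 5.3% of all genes (0 by DESeq2 and by limma-voom). C3 stood at 79.7, 34.5, 50.2, 71.2 and 41.8 CPM in injured rats and at 46.5, 36.2, 62.1, 87.2 and 44.4 CPM in sham rats. Both groups spanned about the same range, with means of 55.5 ± 19.3 and 55.3 ± 20.1 CPM (SD, n = 5). The log2 fold change was 0.01 with an interval from -0.54 to 0.56 (edgeR, adjusted p = 0.997), so a fold between 0.689 and 1.47 was not excluded. The first chain stood at 38.3, 40.8, 30.6, 41.3 and 46.0 CPM in injured and at 37.9, 40.3, 39.5, 38.1 and 34.8 CPM in sham rats, a log2 fold change of 0.04 with an interval from -0.20 to 0.28 (edgeR, adjusted p = 0.983). The second chain, the third chain and Aif1 had log2 fold changes of -0.14, -0.01 and -0.18 (edgeR, adjusted p from 0.92 to 0.997).

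With all 20 injured against all 10 sham rats the intervals were narrowest. The log2 fold changes of the chains were -0.09, -0.12 and -0.15, that of Aif1 was -0.04 and that of C3 was 0.19 (edgeR, adjusted p from 0.481 to 0.873). The members' median was -0.09 and that of all genes -0.00. As folds, the 95% intervals ran from 0.846 to 1.04 for the first chain, from 0.799 to 1.06 for the second and from 0.792 to 1.02 for the third. They ran from 0.866 to 1.09 for Aif1 and from 0.899 to 1.44 for C3. Of the 5 genes 0 had an unadjusted p under 0.05, where 13% of all genes (1931) did, and 0.0% of all genes passed after adjustment. An average rise of the chains or of Aif1 by more than 1.09-fold lay outside these intervals. Falls down to 0.792 of sham in the third chain and 0.799 in the second lay inside them. Without the library of conflicting labels the chains had log2 fold changes of -0.07, -0.10 and -0.13. Aif1 then had -0.06 and C3 0.17, and 0 of the 5 genes and 0 of all genes passed (edgeR, lowest adjusted p = 0.6). At 1 week alone the upper bounds were 1.32-fold for the second chain and 1.29-fold for Aif1.

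**Figure D2:**
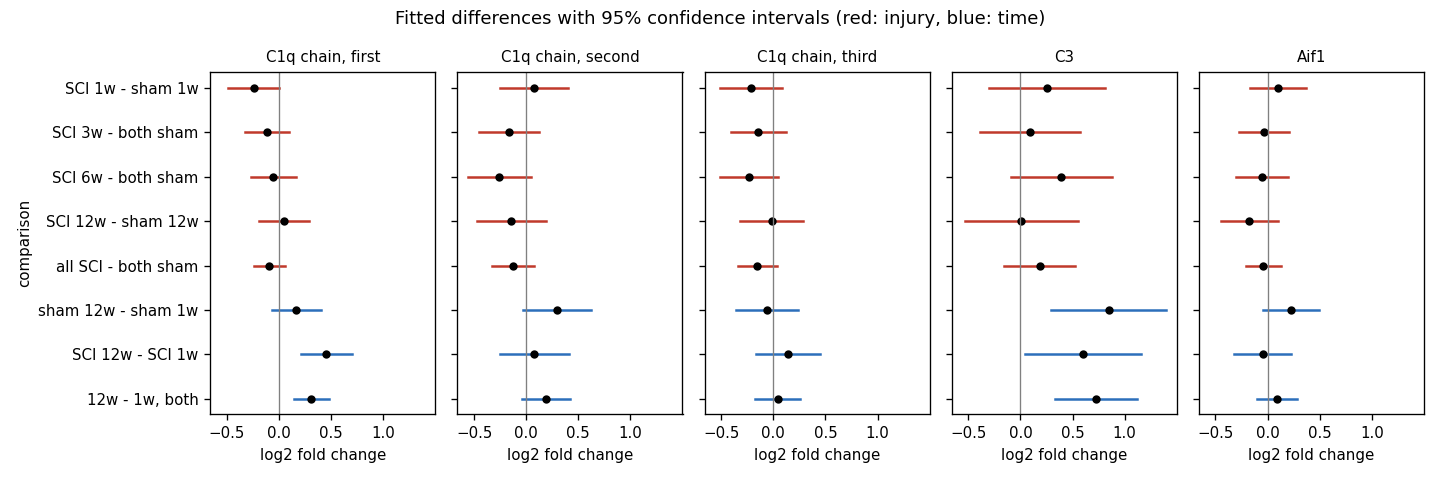
Log2 fold change (horizontal axis) of each gene in 8 comparisons, with the fitted value as a dot and its 95% confidence interval as a line, red for injury against sham and blue for 12 weeks against 1 week. The injury intervals cross 0 except that of the first chain at 1 week, which ends at -0.005, and C3 has the widest intervals and the largest values in the time comparisons.

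Between the sham groups C3 had the lowest p of the 5 genes. All 5 sham rats of 12 weeks, from 36.2 to 87.2 CPM, lay above all 5 of 1 week, from 28.2 to 34.0 CPM, as held in this direction for 1.11% of all genes. The log2 fold change was 0.85 (standard error 0.269), a 1.8-fold difference with an interval from 1.22 to 2.64. By p it ranked 145 of 14801 genes, and it did not pass (edgeR, unadjusted p = 0.00428, adjusted p = 0.428), and 0.0% of all genes passed while 8.24% had an unadjusted p under 0.05. Without sham 12 weeks replicate 4, the rat at 87.2 CPM, the log2 fold change was 0.62 (edgeR, adjusted p = 0.575), and without the library of conflicting labels 0.81 (edgeR, adjusted p = 0.563). The other 4 genes had log2 fold changes between -0.06 and 0.29 between the sham groups and none passed (edgeR, adjusted p from 0.651 to 0.952). In every comparison of 12 weeks with 1 week, time since the operation cannot be told apart from age or from any handling by week.

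Injured rats showed the same direction for C3 over time. From SCI 1 week to SCI 12 weeks the log2 fold change was 0.60 with an interval from 0.05 to 1.15 (edgeR, unadjusted p = 0.0348, adjusted p = 0.407). The first C1q chain went from 28.7 ± 5.29 to 39.4 ± 5.67 CPM (SD, n = 5), which is 0.45 in log2 (standard error 0.119) (edgeR, unadjusted p = 0.000547, adjusted p = 0.137). In that chain 4 of the 5 rats of 12 weeks lay above the highest rat of 1 week, 33.8 CPM. For 0 of the 5 genes did the groups not overlap, against 1.16% of all genes higher and 0.986% lower. At an unadjusted p under 0.05 stood 2 of the 5 genes, against 11.0% of all genes. In this comparison edgeR called 0 of the 5 genes, against 0.0811% of all genes (12). DESeq2 called the first chain (adjusted p = 0.0483) among 59 genes in all. The second chain, the third chain and Aif1 had log2 fold changes of 0.08, 0.14 and -0.04 (edgeR, adjusted p from 0.789 to 0.936). In the joint test among the 4 injured groups the first chain had an unadjusted p = 0.006 (edgeR, adjusted p = 0.541), 1 of 5 genes under 0.05 where 7.14% of all genes were, and the others 0.123 to 0.987, with 0 of the 5 and 0.0338% of all genes passing.

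Because C3 and the first chain had higher means at 12 weeks after either operation, both weeks were also compared over sham and injured rats together, a comparison added after the values had been seen. C3 differed by 0.72 in log2 (standard error 0.19), 1.65-fold with an interval from 1.26 to 2.17 (edgeR, unadjusted p = 0.000836, adjusted p = 0.152). The first chain differed by 0.31 with a standard error of 0.084, 1.24-fold with an interval from 1.1 to 1.39 (edgeR, unadjusted p = 0.000736, adjusted p = 0.149). By p they ranked 79 and 73 among 14801 genes, of which 13 or 0.0878% passed, and neither did. DESeq2 called both (adjusted p = 0.0276 and 0.0443) among 74 genes in all. An unadjusted p under 0.05 was found by edgeR for 2 of the 5 genes, against 10.7% of all genes. Because the values of these 2 genes prompted the comparison, their p-values and ranks in it are not independent support. Without the library of conflicting labels the differences were 0.71 for C3 (edgeR, adjusted p = 0.275) and 0.33 for the first chain (edgeR, adjusted p = 0.212). The second chain, the third chain and Aif1 had log2 fold changes of 0.19, 0.04 and 0.09 (edgeR, adjusted p from 0.569 to 0.93). Whether the injury effect itself differed between 12 and 1 weeks was tested as an interaction, in which 0 of the 5 genes and 0.0% of all genes passed. Of the 5, 0 had an unadjusted p under 0.05, where 8.38% of all genes did (edgeR, adjusted p from 0.675 to 0.915). For C3 the interaction was -0.25 with an interval from -1.03 to 0.53 (edgeR, adjusted p = 0.915). Without the library of conflicting labels 0 of the 5 genes and 1 of all genes passed in the interaction (edgeR, lowest adjusted p of the 5 = 0.741). With that library counted as injured, 0 of the 5 and 0 of all genes passed (edgeR, lowest adjusted p of the 5 = 0.811).

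Ordered by mean, C3 ran from sham 1 week through SCI 1 week, SCI 3 weeks, SCI 6 weeks and sham 12 weeks to SCI 12 weeks, with 30.6, 36.8, 43.5, 54.3, 55.3 and 55.5 CPM. The first chain ran from SCI 1 week through SCI 3 weeks, sham 1 week, SCI 6 weeks and sham 12 weeks to SCI 12 weeks, with 28.7, 33.0, 33.9, 34.7, 38.1 and 39.4 CPM. The second chain was lowest in SCI 6 weeks (13.2 CPM) and highest in sham 12 weeks (17.6 CPM), and the third chain was lowest in SCI 6 weeks (9.38 CPM) and highest in sham 1 week (11.2 CPM). Aif1 was lowest in sham 1 week (12.0 CPM) and highest in sham 12 weeks (14.1 CPM). In all 5 genes, neighbours in the order differed by less than the larger SD of the pair and their ranges overlapped. Groups accounted for 40.9% of the variance of log2 CPM in C3, 39.4% in the first chain, 20.8% in the second, 13.3% in the third and 11.0% in Aif1, beside a median of 19.2% over all genes.

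The spread of C3 between rats of 1 group was large for a gene of its level. Its SD within groups was 0.434 on the log2 scale, above that of 99.5% of the 2378 genes whose mean lay within 0.5 log2 units of its own, which had a median SD of 0.134. Counting error at its median count of 633 gives an SD of only 0.0573. The spread was uneven: the SD of log2 CPM was 0.098 in sham 1 week, 0.289 and 0.285 in SCI 3 and 6 weeks, and 0.491, 0.676 and 0.508 in sham 12 weeks, SCI 1 week and SCI 12 weeks. In the last 3 groups single rats ran from 36.2 to 87.2, from 19.4 to 50.3 and from 34.5 to 79.7 CPM, beside 6 group means from 30.6 to 55.5 CPM. The edgeR fit used 1 estimate of spread per gene over the 6 groups. The intervals and p-values of C3 therefore do not reflect its uneven spread.

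The C1q chains varied less. Within groups the SD of log2 CPM was 0.212, 0.289 and 0.248, above that of 89.3%, 93.1% and 70.3% of genes of similar level, and Aif1 had 0.218, above 64.7% of such genes. Counting error alone gives 0.0647, 0.0969 and 0.122 for the chains and 0.107 for Aif1 at their median counts of 496, 221, 139 and 182. The third chain and Aif1, with the fewest counts, therefore carry the most counting noise. The first chain held 57.7% ± 3.68 (SD, n = 30) of the counts of the 3 chains, with a range from 49.5% to 64.5%, the second 25.0% ± 2.85 and the third 17.3% ± 2.47. The lowest share of the first chain was in SCI 1 week, 53.5% ± 3.04 (n = 5), where the second held 28.2% ± 1.05. These shares depend on transcript length and are not ratios of molecules.

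**Figure D3:**
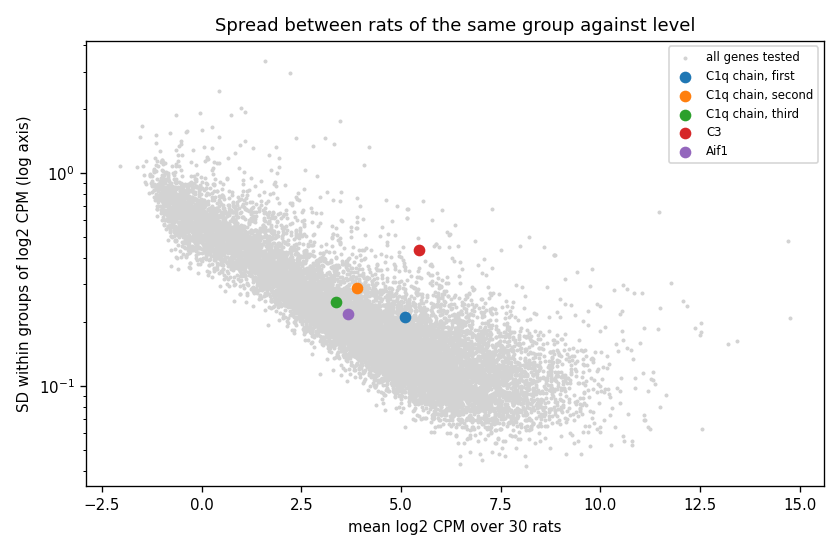
SD of log2 CPM within groups (vertical log axis) against mean log2 CPM over 30 rats (horizontal axis), with all tested genes in gray and the 5 genes in colour. C3, at 0.434, lies above nearly all genes of its level, and the third C1q chain and Aif1 lie inside the cloud.

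Rats with a high level of 1 chain tended to have a high level of the others. Each value was taken as log2 CPM minus its group mean, so that differences between groups could not produce the relation, and 10 pairs of genes were tested over 30 rats with 100000 permutations within groups. The first and the second chain had a Pearson r of 0.70 (permutation p = 0.00047, adjusted p = 0.0047) and a Spearman rho of 0.59 (permutation p = 0.0021, adjusted p = 0.021). Without the 2 rats farthest from the median, SCI 3 weeks replicate 1 and SCI 1 week replicate 2, the r was 0.57. The second and the third chain had an r of 0.53 (permutation p = 0.00431, adjusted p = 0.0215) and a rho of 0.52 (permutation p = 0.00694, adjusted p = 0.0231), with an r of 0.54 without 2 rats, and leaving out any of 3 libraries raised that adjusted p above 0.05, as SCI 12 weeks replicate 3 did (r of 0.50, permutation test, adjusted p = 0.0542). The first and the third had an r of 0.39 (permutation p = 0.0192, adjusted p = 0.048) and a rho of 0.51 (permutation p = 0.00484, adjusted p = 0.0231), with an r of 0.50 without 2 rats. This last adjusted p passed 0.05 when any of 19 libraries was left out, and was highest, 0.168, when SCI 12 weeks replicate 3 was.

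Aif1 moved with the second chain. The r was 0.51 (permutation p = 0.0131, adjusted p = 0.0436) and the rho 0.48 (permutation p = 0.0173, adjusted p = 0.0433), with an r of 0.46 without the 2 rats farthest from the median. Leaving out any of 9 libraries raised its adjusted p above 0.05, to 0.172 when SCI 12 weeks replicate 3 was dropped, whose Aif1 of 8.62 CPM was the lowest of the 30 rats. With the first chain Aif1 had an r of 0.46 (permutation p = 0.0273, adjusted p = 0.0546) and a rho of 0.40 (permutation p = 0.047, adjusted p = 0.0941), and 0.44 without 2 rats. This pair passed in 9 of 33 alternatives, with adjusted p from 0.0329 to 0.304 (permutation test). Whether Aif1 differed in its relation to the first and the second chain was not tested. With the third chain Aif1 had an r of 0.13 (permutation p = 0.483, adjusted p = 0.604) and a rho of 0.10 (permutation p = 0.631, adjusted p = 0.789). Among all genes tested, ordered by their r with Aif1, the second chain ranked 408, the first 724 and the third 4623. Many other genes thus followed Aif1 more closely than any chain did, so these relations are not specific to the chains.

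C3 was not shown to move with any of them. Its r was -0.01 with Aif1 (permutation p = 0.975, adjusted p = 0.975), with a rho of 0.04 (permutation p = 0.839, adjusted p = 0.851). It was 0.26 with the first chain (permutation p = 0.27, adjusted p = 0.45) and fell to -0.01 without SCI 3 weeks replicate 1 and SCI 1 week replicate 2, with a rho of 0.14 (permutation p = 0.514, adjusted p = 0.734). It was 0.08 with the second chain (permutation p = 0.7, adjusted p = 0.778; rho of -0.04, permutation p = 0.851, adjusted p = 0.851) and -0.14 with the third (permutation p = 0.438, adjusted p = 0.604; rho of -0.16, permutation p = 0.41, adjusted p = 0.683). With group means kept, C3 and the first chain had an r of 0.44 (permutation p = 0.0151, adjusted p = 0.0377), a value in which the differences between groups take part. The difference between the correlations of C3 and those of the chains was not tested. With log2 library total the 5 genes had r between -0.11 and 0.10 (permutation test, adjusted p = 0.882 for each) and rho between -0.16 and 0.18 (permutation test, adjusted p = 0.886 for each). Without the 2 libraries farthest from the median total these r lay between -0.21 and 0.41, the last for the second chain, so this value depends on which libraries are kept.

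**Figure D4:**
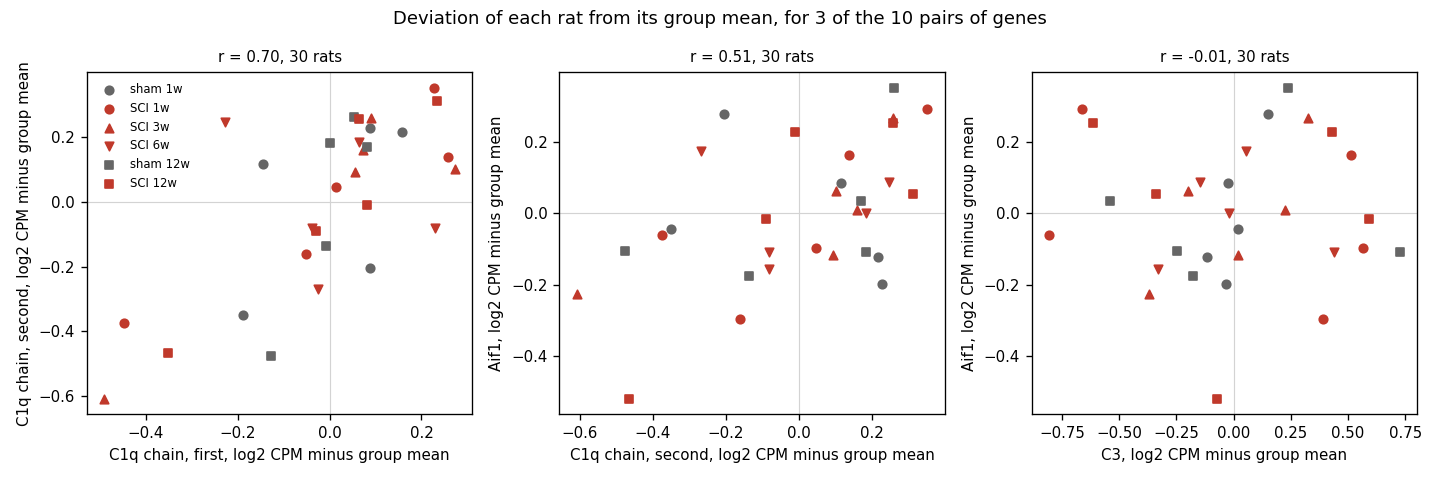
Log2 CPM minus the group mean in each of 30 rats, for the first against the second C1q chain, the second chain against Aif1, and C3 against Aif1 (gray sham, red injured, marker shape by week). The points rise together in the first pair (r = 0.70) and in the second (r = 0.51), and show no slope in C3 against Aif1 (r = -0.01).

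The genes most like each pattern were listed by the same r over 30 rats, as a description. For the mean of the C1q chains they were ENSRNOG00000006283 (r = 0.80) and ENSRNOG00000014179 (r = 0.79) among 14796 other genes. The chains themselves had r of 0.82, 0.91 and 0.77 with that mean, of which they are part, and ranked 2, 1 and 10 among all genes tested. Both named genes thus stood above the third chain. Aif1 had an r of 0.44 and ranked 1352, so many other genes were more like the chains. For C3 they were ENSRNOG00000032919 (r = 0.77) and ENSRNOG00000017980 (r = 0.71), and for Aif1 ENSRNOG00000015233 (r = 0.73) and ENSRNOG00000018584 (r = 0.72). The tables do not pair these identifiers with names.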

How the data were processed

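Each rat gave 1 library and 1 deposited table of raw counts by gene identifier. The submitters' processing notes name bcl2fastq 2.19.05, Trimmomatic, STAR 2.5.3a, featureCounts, Subread and build Rnor_6.0. The annotation release and the handling of reads with several alignments were not found in the labels or files. Per the labels' protocols, ribosomal RNA was depleted and the library kit keeps strand.

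Groups came from the sample titles. The counts were tested with edgeR 4.0.16 in R 4.3.3 (TMM, filterByExpr, robust quasi-likelihood fit, 6 groups in 1 model), checked on simulated data, and p-values were adjusted over 14801 genes with a threshold of 0.05. Log2 CPM used a prior count of 2. Intervals are 95% confidence intervals. Correlations used Python 3.11.15 and scipy 1.17.1, with 20000 permutations where a library was left out. Alternatives included DESeq2 1.42.0, limma-voom (limma 3.58.1), no filter, other size factors, a replicate block and each library left out. The log2 library total as a covariate, leaving out 2 libraries far from the others and the comparison of both weeks over sham and injured rats were chosen after seeing the data.

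The members and lists were chosen with earlier results of these data known. Besides the members, genes were to be named by gene list and by likeness (highest r over 30 rats). None of 47357 reference rows carries such an identifier, so the lists were not run, and 2 identifiers per pattern are named. No 2 libraries held identical values.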

Additional observations from a re-analysis of the deposited data

Results flagged for a closer look

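For each of the 5 genes in each of the 6 groups, the distance of the highest or lowest rat to its neighbour was divided by the whole range of the 5 rats, with 0.71 as the bound. In 1 of the 30 sets it was passed: the second C1q chain in SCI 3 weeks replicate 1 stood at 8.97 CPM, with the other 4 rats between 14.7 and 16.4 CPM and a ratio of 0.761. Chance passes about 1 in 20 sets, or 1.5 of 30.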

How the results depend on the processing

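Over the alternatives, edgeR called 0 of the 5 genes in each injury comparison, in the interaction, among the injured groups and between the sham groups, and so did DESeq2 and limma-voom. In SCI 12 weeks against SCI 1 week DESeq2 called 1 of the 5 genes, with 59 over all genes against 12 by edgeR, and the other alternatives called 0 of the 5. In 12 against 1 week over sham and injured rats DESeq2 called 2 of the 5 genes, with 74 over all genes against 13 by edgeR. Leaving out a library gave 0 to 1 of the 5, the 1 being the first chain without SCI 12 weeks replicate 3 (edgeR, adjusted p = 0.0356), where 93 genes passed in all. With the replicate block 0 of the 5 genes passed in any comparison. In SCI 1 week against sham 1 week alone, the lowest adjusted p of the 5 was then 0.405 (edgeR), where 54 of all genes passed. The numbers are not stated to pair rats, and over 75 pairs of same-numbered libraries the correlation of deviations from group means had a median of 0.007 and ran from -0.153 to 0.146.

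Of 1820 recomputed log2 fold changes of single genes, 27 changed sign. In the main fit 0 of the 5 genes passed the threshold in any comparison, so no sign change could touch a value that passed. With sham 12 weeks alone as reference C3 was -0.332 at 3 weeks and -0.032 at 6 weeks. With sham 1 week alone Aif1 was 0.082 at 3 and 0.059 at 6 weeks, and the first chain 0.025 at 6 weeks. With 2 libraries far from the others left out Aif1 was 0.017 at 3 weeks. Leaving out 1 library at a time changed the sign of log2 fold changes near 0. At 1 week the second chain ran from -0.029 to 0.161. At 3 weeks Aif1 ran from -0.108 to 0.019. At 12 weeks against sham the third chain ran from -0.084 to 0.126, the first from -0.024 to 0.129 and C3 from -0.15 to 0.234. Between the sham groups the third chain ran from -0.202 to 0.022, and over all injured rats Aif1 ran from -0.069 to 0.009. From SCI 1 to SCI 12 weeks the second chain ran from -0.02 to 0.192 and Aif1 from -0.111 to 0.081, and in 12 against 1 week over sham and injured rats the third chain ran from -0.029 to 0.087.

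For correlations, keeping group means gave r of 0.41 for the first with the third chain (permutation test, adjusted p = 0.0514), 0.44 for the first chain with C3 and 0.11 for C3 with Aif1. Without TMM the first chain with Aif1 gave 0.48 (permutation test, adjusted p = 0.0443). Leaving out 1 library gave 0.34 to 0.45 for the first with the third chain, 0.46 to 0.61 for the second with the third, 0.39 to 0.59 for the second chain with Aif1, 0.32 to 0.5 for the first chain with Aif1, -0.05 to 0.2 for the second chain with C3 and -0.07 to 0.11 for C3 with Aif1. The causes were not tested. The third chain and Aif1, with median counts of 139 and 182, carry the most counting error.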
